A study of Mus musculus with 4 samples.

Results

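The 9 genes described here build the junctions of the epithelium that encloses the blastocyst cavity, or move fluid across it. They are the tight junction genes Cldn4, Cldn6, Cldn7, Ocln and Tjp1, the adherens junction gene Cdh1, the sodium pump gene Atp1b1 and the aquaporin genes Aqp3 and Aqp8. They were picked by name out of the 21470 genes of a count table, and all 9 were among the 6943 genes with enough counts to be tested. The RNA came from wild-type mouse embryos, the offspring of B6D2F1 males and ICR females, whose tissues were taken apart with the system that the submitters call HTlasr. The 4 groups were the extra-embryonic side or trophectoderm (TE) at D10, the TE at E4, the embryonic side or inner cell mass (ICM) at D10, and the ICM at E4, with 5 libraries each. The sources disagree on E4: the protocol calls all embryos diapause embryos, whereas the title and the barcode list place E4 before diapause, a reversible pause of the blastocyst ahead of implantation. The groups are therefore called E4 and D10 only. The 5 replicates of a time came from 5 litters, with the TE and ICM libraries of 1 number from the same litter, and E4 and D10 shared no litter. At E4, 2 litters still had the zona pellucida, the glycoprotein shell of the embryo, and 3 had none, as had all 5 at D10. The 5 libraries of each group were mixed before amplification, so a difference between groups and a difference between amplification pools cannot be told apart. No source says how many embryos went into a library, and the p-values below measure the spread between libraries, which may be partly technical.

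The TE is the first epithelium of the embryo. Claudins and occludin seal the space between its cells, with Tjp1 (ZO-1) as the scaffold that ties them to the actin cytoskeleton, and E-cadherin, the product of Cdh1, holds the cells together. The sodium pump, an alpha and a beta subunit in the membrane that faces the cavity, moves sodium inward, and water follows through aquaporins and between the cells, which fills the blastocoel. In the mouse blastocyst, Aqp3, Aqp8 and Aqp9 have all been described in the TE. The ICM lies inside this epithelium, and its cells include the primitive endoderm, an epithelium of its own.

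The start regions of 3 genes that were higher in the TE at E4 (Cldn4, Cldn7 and Ocln) and of the 1 gene that was lower there (Aqp8) are shown as examples of tight junction genes on the TE side and of the gene on the ICM side. Each is the RefSeq window on GRCm38.p6 from 250 bases before to 50 bases after an annotated start, read 5′ to 3′ on the gene's own strand, and capitals mark CAGGTG on either strand. They are chr5:134946885-134947184 (minus strand) for Cldn4, chr11:69965171-69965470 (plus strand) for the second of the 2 Cldn7 windows, chr13:100552669-100552968 (minus strand) for the first of the 2 Ocln windows, which overlap, and chr7:123462044-123462343 (plus strand) for Aqp8.
Cldn4: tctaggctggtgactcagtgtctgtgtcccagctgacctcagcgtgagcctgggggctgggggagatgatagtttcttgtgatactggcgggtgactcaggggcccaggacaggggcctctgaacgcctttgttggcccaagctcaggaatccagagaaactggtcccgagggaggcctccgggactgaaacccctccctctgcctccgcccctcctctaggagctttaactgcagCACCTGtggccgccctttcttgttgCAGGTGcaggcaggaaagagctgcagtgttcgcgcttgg
Cldn7: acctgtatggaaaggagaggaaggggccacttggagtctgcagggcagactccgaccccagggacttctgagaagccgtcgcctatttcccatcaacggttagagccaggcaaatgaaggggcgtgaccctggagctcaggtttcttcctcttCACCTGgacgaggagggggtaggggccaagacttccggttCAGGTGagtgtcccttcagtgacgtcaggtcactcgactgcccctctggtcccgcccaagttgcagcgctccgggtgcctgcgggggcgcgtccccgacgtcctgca
Ocln: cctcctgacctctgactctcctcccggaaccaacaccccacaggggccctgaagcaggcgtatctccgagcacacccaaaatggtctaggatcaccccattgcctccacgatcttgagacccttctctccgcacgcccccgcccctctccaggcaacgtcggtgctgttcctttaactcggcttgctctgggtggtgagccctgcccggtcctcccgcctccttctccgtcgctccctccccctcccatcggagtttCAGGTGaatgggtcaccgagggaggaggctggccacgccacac
Aqp8: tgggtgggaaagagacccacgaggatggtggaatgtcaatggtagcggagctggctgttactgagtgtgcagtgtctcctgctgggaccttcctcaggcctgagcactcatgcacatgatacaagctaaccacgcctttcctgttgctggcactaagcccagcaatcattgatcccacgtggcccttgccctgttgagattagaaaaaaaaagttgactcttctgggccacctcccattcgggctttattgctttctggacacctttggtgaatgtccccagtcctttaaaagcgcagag
CAGGTG is the E-box that the Snail and Zeb repressors of epithelial genes bind. It occurred in 6 of the 10 windows listed for 8 of the 9 genes, and 20.2% of all 32851 windows in the table held it. The 10 windows are not independent, since the overlapping Ocln windows share 1 match, at 7 in the first and -213 in the second. The genes with a match were Cldn4, Cldn6, Cldn7, Ocln and Aqp3. Counted in bases from the start, at 0, the matches began at -14 and 11 in Cldn4, and at -97 and -57 in the Cldn7 window shown, with none in its other window. The windows shown for Aqp8, and those of Tjp1 and Atp1b1, held none. GCCNNNGGC, the motif of the TFAP2 factors, was found in 2 of the 10 windows, against 16.6% of all windows, and AACCNGGTT, that of the Grainyhead-like factors, in 0, against 0.271%. These are matches of letters within short windows, and binding was not measured.

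Total counts ran from 144276 to 1010354 per library, and a count of 0 allows 21.5 CPM at most in the library where this limit is highest, and 3.15 CPM where it is lowest. CPM are counts scaled to the library's total with TMM factors, and limits and intervals of this kind cover only the error of counting. The tissue labels were checked against marker lists. The summed epiblast markers stood at 8.02 to 63.9 CPM in the D10 TE libraries and 24.3 to 57.2 CPM in the E4 TE libraries, against 738 to 1328 CPM in D10 ICM and 1493 to 2935 CPM in E4 ICM. Primitive endoderm markers summed to 412 to 1341 CPM in D10 TE and 222 to 565 CPM in E4 TE, against 6227 to 9257 CPM in D10 ICM and 1712 to 4385 CPM in E4 ICM. Trophectoderm markers summed to 8996 to 14684 CPM in D10 TE and 6910 to 10981 CPM in E4 TE. They were not absent from the ICM, where they summed to 3357 to 7534 CPM at D10 and 1974 to 2726 CPM at E4, and Gata3, a defining trophectoderm factor, was counted in all 20 libraries. In the ICM, 4 of 9 tested trophectoderm markers were higher at D10 than at E4 and 0 were lower, against 13.7% and 9.97% of all tested genes. Uterine epithelium markers summed to 449 to 582 CPM in D10 TE and 136 to 351 CPM in E4 TE, against 228 to 376 CPM in D10 ICM and 70.5 to 232 CPM in E4 ICM, with Ltf at 0 in every group except D10 ICM. Blood cell markers reached at most 141 CPM. In bulk libraries, fewer cells of a type and less RNA per cell cannot be told apart.

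Most of the differences placed a gene on the TE side, and Aqp8 on the ICM side. At D10, Cldn4, Atp1b1 and Aqp3 were higher in the TE than in the ICM (3 of 9) and Aqp8 lower (1 of 9), where 12.6% of all tested genes were higher and 12.9% lower. At E4, the genes higher in the TE were Cldn4, Cldn7, Ocln, Cdh1 and Aqp3, 5 of 9, and Aqp8 was lower, 1 of 9. Of all tested genes, 15.4% were higher and 15.8% lower at E4. Calls are adjusted p-values under 0.05 of edgeR's quasi-likelihood test across all 6943 genes. The median log2 fold change of the 9 genes, TE over ICM, was 0.53 at D10 and 1.17 at E4, against -0.01 and -0.03 over all tested genes. The 5 libraries of each tissue did not overlap for 3 of 9 genes at D10 (Cldn4, Ocln and Aqp3), against 16.3% of all tested genes, and for 5 of 9 at E4 (Cldn4, Cldn6, Cldn7, Ocln and Aqp8), against 20.8%. Between D10 and E4 the libraries overlapped for all 9 genes in both tissues, where 15.2% of all tested genes did not overlap in the TE and 14.5% in the ICM. The comparisons share groups with one another, so their values are given side by side.

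Across time, the sodium pump gene was higher at D10 in the TE, and 3 claudin genes in the ICM. In the TE, 1 of 9 was higher at D10 than at E4, Atp1b1, against 11.9% of all tested genes, and 0 of 9 were lower, against 9.89% (0 with DESeq2, and 1, Cldn7, at an unadjusted p under 0.05 in edgeR). In the ICM, Cldn4, Cldn6 and Cldn7 were higher at D10 than at E4 (3 of 9, against 13.7% of all tested genes). In the edgeR test 0 of 9 were lower there, against 9.97%, as with DESeq2 and at an unadjusted p under 0.05. The median log2 fold change, D10 over E4, was -0.30 in the TE and 0.62 in the ICM, where all tested genes had 0.02 and -0.00306. The difference of the changes, TE minus ICM, was lower for 1 of 9 genes, Cldn7, against 3.15% of all tested genes (2 with DESeq2, 3 with the litter as a block, and 5 at an unadjusted p under 0.05 in edgeR), and higher for 0 of 9, against 1.83% (0 with DESeq2, and 1, Atp1b1, at an unadjusted p under 0.05 in edgeR). For the members that passed in 1 tissue only, this test of the difference is given below with each gene. Here and below, shares of all tested genes are those of edgeR at an adjusted p under 0.05. They do not apply to counts given for other settings or for unadjusted p-values.

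**Figure D1:**
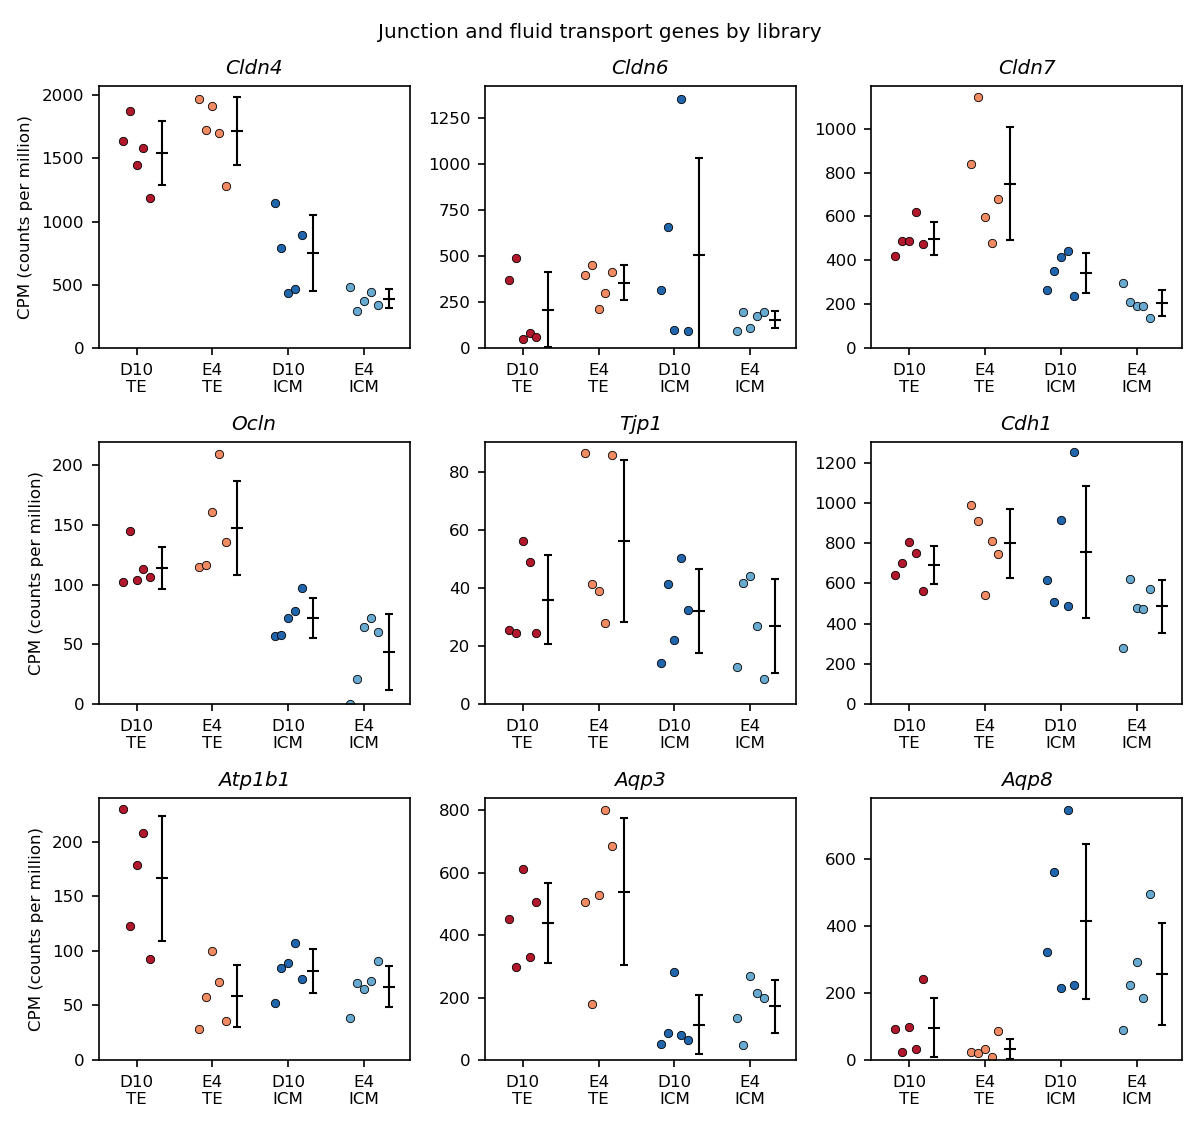
CPM (y axes, linear, 1 scale per gene) of the 9 genes in each of the 20 libraries, by group on the x axes. Points are libraries in replicate order and bars are the mean ± SD of 5 libraries, with the lower arm of 1 bar (Cldn6 in D10 ICM) running past the axis at 0. Cldn4 lies at or above 1186 CPM in every TE library and at or below 1150.3 CPM in every ICM library, and Aqp8 is higher in the ICM.

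**Figure D2:**
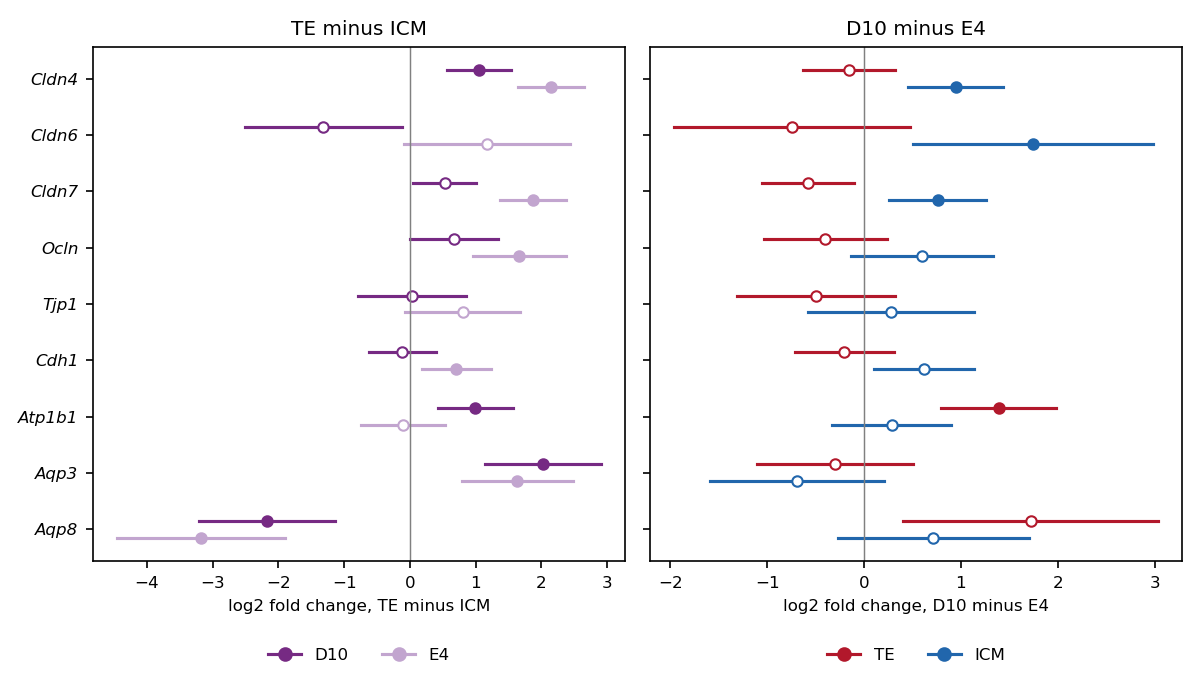
Log2 fold changes (x axes) of the 9 genes, TE over ICM on the left and D10 over E4 on the right, with 95% intervals of the edgeR fit as lines. Filled points passed an adjusted p of 0.05 and open points did not. On the left, the intervals of Cldn4, Cldn7, Ocln and Aqp3 lie above 0 and those of Aqp8 below 0 at both times, and on the right the ICM intervals of Cldn4, Cldn6, Cldn7 and Cdh1 lie above 0.

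Cldn4 (ENSMUSG00000047501, GRCm38 chromosome 5, 134945119 to 134946934, minus strand) encodes a sealing claudin. In replicates 1 to 5, it stood at 1637, 1874, 1446, 1579 and 1186 CPM in D10 TE and 1968, 1725, 1916, 1701 and 1281 CPM in E4 TE. The ICM libraries had 1150.3, 794, 438, 466 and 896 CPM at D10 and 482, 295, 375, 445 and 344 CPM at E4. Every TE library was above every ICM library, and the D10 ICM libraries spread widely, with 2 of them within the range of E4 ICM. TE exceeded ICM by 2.07-fold at D10 (log2 1.05 ± 0.23 SE, adjusted p = 0.00144) and by 4.44-fold at E4 (log2 2.15 ± 0.24, adjusted p = 4.93e-07). Between D10 and E4 it did not pass in the TE (log2 -0.15, 95% interval -0.63 to 0.32, adjusted p = 0.679). In the ICM, Cldn4 was 1.93-fold higher at D10 than at E4 (log2 0.95 ± 0.24, adjusted p = 0.00524). The difference of the 2 changes was log2 -1.10 ± 0.33 (adjusted p = 0.0514). It passed with the litter as a block (log2 -1.03, adjusted p = 0.0370), as it did with DESeq2 (adjusted p = 0.0169) and with RLE factors (adjusted p = 0.0475). It did not pass without the zona litters. With each of the 20 libraries left out in turn, it passed in 5 edgeR fits and not in 15 (adjusted p 0.0179 to 0.0909). The trophectoderm sum in the ICM moved in the same direction over time as Cldn4, and as Cldn6 and Cldn7, and so did the primitive endoderm sum, at 6227 to 9257 CPM in D10 ICM and 1712 to 4385 CPM in E4 ICM (4 of 9 tested markers higher and 1 lower at D10). By group means, Krt18 (1908 CPM in D10 ICM and 923 CPM in E4 ICM) and Ndrg1 (1105 and 306 CPM) rose most in the trophectoderm sum. Eomes (217 and 304 CPM) and Krt8 (191 and 213 CPM) were lower at D10 and did not pass, and the other listed markers had higher means at D10. The epiblast sum was 738 to 1328 CPM in D10 ICM and 1493 to 2935 CPM in E4 ICM, with 6 of 9 tested markers lower at D10. The part of these cell types in the 3 changes was not tested. D10 ICM replicate 3 had the highest trophectoderm sum of its group, 7534 CPM, and the lowest Cldn4, and without it the ICM change was log2 1.09 (adjusted p = 0.00162).

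Cldn7 (ENSMUSG00000018569, chromosome 11, 69964779 to 69967885, plus strand) encodes another claudin of epithelia. Its values were 419.8, 487, 487, 622 and 475 CPM in D10 TE and 840.1, 1145, 599, 480.1 and 679.7 CPM in E4 TE. The ICM libraries had 266, 351, 415, 443 and 237 CPM at D10 and 298, 209, 192, 192 and 138 CPM at E4. At E4 the tissues lay far apart, whereas at D10 the highest ICM library passed the lowest TE library, although TE exceeded ICM within all 5 litters. At D10 the tissue difference did not pass (1.45-fold, log2 0.53 ± 0.23, adjusted p = 0.0972), but it did with the litter as a block (log2 0.56, adjusted p = 0.0314). TE was 3.66-fold above ICM at E4 (log2 1.87 ± 0.24, adjusted p = 2.73e-06). In the TE, the D10 value was log2 -0.58 ± 0.23 relative to E4 and did not pass (adjusted p = 0.0708). In the ICM Cldn7 was 1.69-fold higher at D10 than at E4 (log2 0.76 ± 0.24, adjusted p = 0.0242). This call was lost without D10 ICM replicate 3 (adjusted p = 0.0550) or 4 (0.0788), without E4 ICM replicate 4 (0.0505) or 5 (0.0629), and with all libraries thinned to the smallest total (0.0659). The changes differed between the tissues by log2 -1.34 ± 0.33 (adjusted p = 0.0177). Leaving out both zona litters of E4 ended this call (log2 -1.25, adjusted p = 0.0539).

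Cldn6 (ENSMUSG00000023906, chromosome 17, 23679249 to 23682446, plus strand) encodes a claudin of embryonic epithelia. It had 369, 489, 48.1, 80.4 and 57.4 CPM in D10 TE and 397, 452, 214, 299 and 415 CPM in E4 TE. The ICM libraries had 314, 656, 99.7, 1355 and 92.9 CPM at D10 and 95.1, 196, 111, 172 and 198 CPM at E4. The E4 groups were compact and did not overlap, whereas the D10 libraries of each tissue split into high and low ones. At D10, litters E and F were high in both tissues, litters G and S low in both, and litter Q low in the TE and the highest of all 20 libraries in the ICM. The 2 highest D10 ICM libraries, replicates 2 and 4, also had the highest primitive endoderm sums, 9257 and 8745 CPM. They also had the largest total counts of the group, 660445 and 1010354, against 215055 to 226866 in the others. In D10 TE, the highest Cldn6 (replicate 2, 489 CPM) came with a primitive endoderm sum of 504 CPM. The highest sum there (replicate 1, 1341 CPM) came with 369 CPM of Cldn6. The part of these sums and totals in the Cldn6 values was not tested. In the ICM, Cldn6 was higher at D10 than at E4 (log2 1.74 ± 0.60, adjusted p = 0.0369). Without the ICM library of litter Q the value was log2 0.95 (adjusted p = 0.243), and the call was also lost without D10 ICM replicate 2 (0.0694), without any single E4 ICM replicate (0.0522 to 0.0766), with DESeq2 (0.0555) and without the zona litters (0.142). Between the tissues it did not pass at D10 (log2 -1.32 ± 0.58, adjusted p = 0.0995) or at E4 (log2 1.17 ± 0.61, adjusted p = 0.149). With the litter as a block both passed, in opposite directions (D10 log2 -1.14, adjusted p = 0.0488, and E4 log2 1.16, adjusted p = 0.0245). With no low-count filter both also passed (D10 log2 -1.35 ± 0.25, adjusted p = 1.43e-06, E4 log2 1.18 ± 0.26, adjusted p = 0.000113). So did the TE value of D10 relative to E4 (log2 -0.71 ± 0.25, adjusted p = 0.0483, against -0.74 ± 0.59 and 0.401 with the filter). The difference of the time changes, TE minus ICM, was log2 -2.49 ± 0.84 (adjusted p = 0.0883), and passed with the block (log2 -2.30, adjusted p = 0.0169). With no low-count filter it was log2 -2.53 ± 0.36 (adjusted p = 6.11e-10). The passes without the filter thus came with smaller standard errors at nearly the same log2 values. The D10 libraries themselves spread 10.2-fold in the TE and 14.6-fold in the ICM.

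**Figure D3:**
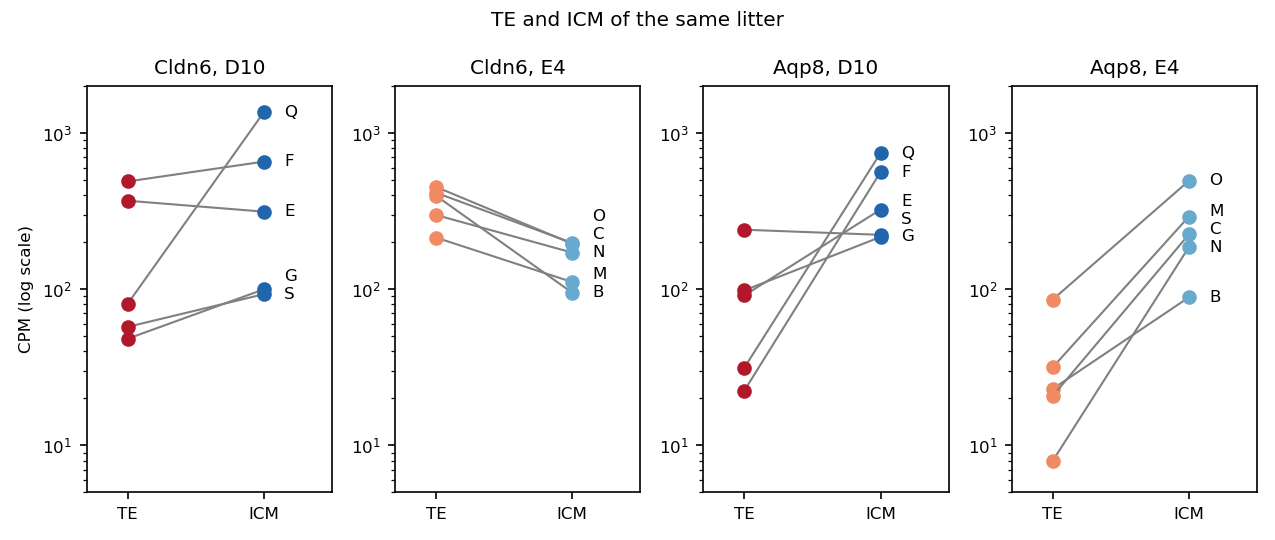
Cldn6 and Aqp8 in CPM (y axes, log scale) in the TE and the ICM of each litter at D10 and E4, with 1 line per litter and the litter's letter at its right end, spread out in the order of the ICM values. Cldn6 is higher in the TE of 1 of 5 D10 litters and of all 5 E4 litters, and Aqp8 is lower in the TE of 4 of 5 D10 litters and of all 5 E4 litters.

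Ocln (ENSMUSG00000021638, chromosome 13, 100496507 to 100552718, minus strand) encodes occludin, a membrane protein of tight junction strands. It stood at 102, 145, 104, 114 and 107 CPM in D10 TE and 115, 116, 161, 209 and 136 CPM in E4 TE. The ICM libraries had 57.0, 57.7, 72.0, 77.7 and 97.5 CPM at D10 and 0, 20.9, 64.9, 72.4 and 60.2 CPM at E4, where the count of 0 in replicate 1 allows up to 19.0 CPM. The tissues did not overlap at either time, and TE exceeded ICM in all 5 litters of both. At D10 the difference did not pass the threshold (1.59-fold, log2 0.67 ± 0.32, 95% interval 0.00315 to 1.33, adjusted p = 0.136), but did without the E4 libraries of the zona litters in the fit (log2 0.66, adjusted p = 0.0255). At E4 it was 3.17-fold (log2 1.66 ± 0.34, adjusted p = 0.000585). Neither time comparison passed, with log2 -0.40 in the TE (adjusted p = 0.384) and 0.60 in the ICM (adjusted p = 0.240).

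Tjp1 (ENSMUSG00000030516, chromosome 7, 65296165 to 65527781, minus strand) encodes the scaffold ZO-1. It had 24.5 to 56.2 CPM in D10 TE and 27.9 to 86.3 CPM in E4 TE, against 14.3 to 50.4 CPM in D10 ICM and 8.60 to 44.0 CPM in E4 ICM. All 4 ranges overlapped. None of the 5 comparisons passed. The TE over ICM value was log2 0.03 at D10 (95% interval -0.79 to 0.85, adjusted p = 0.975) and 0.80 at E4 (interval -0.07 to 1.67, adjusted p = 0.154), and the D10 over E4 value -0.49 in the TE (adjusted p = 0.407) and 0.28 in the ICM (adjusted p = 0.679). These intervals hold both 0 and differences up to their ends, which the test did not tell apart.

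Cdh1 (ENSMUSG00000000303, chromosome 8, 106603351 to 106670246, plus strand), the E-cadherin gene, was counted in every library of both tissues. It had 642, 701, 804, 749 and 560.01 CPM in D10 TE and 989.7, 908, 540.4, 813 and 744 CPM in E4 TE, against 618, 506, 914, 489 and 1254 CPM in D10 ICM and 279, 622, 479, 474 and 572 CPM in E4 ICM. The D10 ICM libraries enclosed the whole D10 TE range, and at E4 only TE replicate 3 fell among the ICM libraries. At D10 the tissue difference was log2 -0.12 (95% interval -0.63 to 0.39, adjusted p = 0.791). At E4 TE exceeded ICM by 1.63-fold (log2 0.71 ± 0.25, adjusted p = 0.0334) and in all 5 litters. The call was lost without the zona litters (log2 0.50, adjusted p = 0.274) and without E4 TE replicate 1 (adjusted p = 0.0655) or 2 (0.0515) or E4 ICM replicate 1 (0.0793). The ICM value at D10 relative to E4 was log2 0.62 ± 0.25 and did not pass (adjusted p = 0.0741), though it did with DESeq2 (adjusted p = 0.0492).

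Atp1b1 (ENSMUSG00000026576, chromosome 1, 164437109 to 164458355, minus strand) encodes the beta-1 subunit of the sodium pump, which carries the catalytic alpha subunit to the membrane. It had 229.97, 122, 179, 208 and 92.9 CPM in D10 TE and 28.8, 58.1, 99.8, 71.7 and 35.8 CPM in E4 TE. The ICM libraries had 52.3, 84.0, 88.6, 107 and 74.3 CPM at D10 and 38.0, 70.5, 64.9, 72.4 and 90.3 CPM at E4. The D10 TE libraries were the high ones, with replicate 5 alone among the values of the other groups. In the TE, Atp1b1 was 2.62-fold higher at D10 than at E4 (log2 1.39 ± 0.29, adjusted p = 0.00103). At D10 the TE exceeded the ICM (log2 1.00 ± 0.28, adjusted p = 0.00829) and in all 5 litters. At E4 it did so in 1 of 5 litters, and the difference did not pass (log2 -0.10, 95% interval -0.75 to 0.54, adjusted p = 0.830). The ICM change was log2 0.29 (interval -0.33 to 0.90, adjusted p = 0.524), and the difference of the changes did not pass (log2 1.10 ± 0.42, adjusted p = 0.130). The summed uterine epithelium markers were also above E4 in the D10 TE libraries (449 to 582 CPM, against 136 to 351 CPM in E4 TE, with Ltf at 0 in both). Most of that sum was Wfdc2, at 445 ± 65.4 CPM in D10 TE and 156 ± 36.7 CPM in E4 TE (SD, n = 5 each). By group means, Muc1 (20.6 CPM in D10 TE and 0.797 CPM in E4 TE), Sprr2f (4.35 and 0 CPM) and Foxa2 were also higher at D10. Calb1, Pgr and Prom1 had lower means at D10 than at E4. Prom1 had 3.49 to 20.4 CPM in D10 TE and 12.2 to 57.5 CPM in E4 TE. The part of these markers in the Atp1b1 change was not tested. The 3′ end of Atp1b1 overlaps that of Nme7 on the other strand by 617 bases. Whether the counting used strand is not given in the sources used here, so reads of the 2 genes may not have been told apart. Nme7 itself had 14 counts over the D10 TE libraries and 11 over E4 TE, against 25 over D10 ICM and 13 over E4 ICM, and was not tested.

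Aqp3 (ENSMUSG00000028435, chromosome 4, 41092722 to 41098183, minus strand) encodes a channel for water and glycerol. It had 451, 299.7, 612, 330.2 and 505 CPM in D10 TE and 506, 178, 528, 801 and 687 CPM in E4 TE, against 52.3, 87.3, 283, 80.8 and 65.0 CPM in D10 ICM and 133, 47.0, 269, 215 and 198 CPM in E4 ICM. All D10 TE libraries were above all D10 ICM libraries, and at E4 only TE replicate 2 fell within the ICM range. TE exceeded ICM 4.06-fold at D10 (log2 2.02 ± 0.43, adjusted p = 0.000832) and 3.10-fold at E4 (log2 1.63 ± 0.41, adjusted p = 0.00356), in 5 of 5 litters at each time. Over time it did not pass in the TE (log2 -0.30, 95% interval -1.10 to 0.50, adjusted p = 0.629) or in the ICM (log2 -0.69, interval -1.59 to 0.21, adjusted p = 0.269). The D10 ICM value rests on replicate 3, the library with the highest trophectoderm sum of its group, and leaving it out gave a D10 over E4 value of log2 -1.22, which passed (adjusted p = 0.0321).

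Aqp8 (ENSMUSG00000030762, chromosome 7, 123462291 to 123468004, plus strand), a water channel of the same family, ran the other way. It had 91.3, 22.4, 98.3, 31.4 and 240.4 CPM in D10 TE and 23.0, 20.7, 31.6, 7.97 and 85.9 CPM in E4 TE, against 323, 562, 216, 744 and 223 CPM in D10 ICM and 88.8, 225, 292, 186 and 495 CPM in E4 ICM. At E4 every TE library was below every ICM library, and at D10 TE replicate 5 was the only TE library inside the ICM range. Aqp8 was lower in the TE by 4.50-fold at D10 (log2 -2.17 ± 0.50, adjusted p = 0.00203) and by 9.02-fold at E4 (log2 -3.17 ± 0.62, adjusted p = 0.000344). The E4 TE values rest on 38 counts over the 5 libraries, against 431 in E4 ICM and 216 in D10 TE. Primitive endoderm markers, of which 8 of 9 tested were lower in the TE at D10 and 9 of 9 at E4, moved with Aqp8, as did all 9 tested epiblast markers at both times. The part of either cell type in the Aqp8 difference was not tested. In the TE, the D10 value was log2 1.72 ± 0.64 relative to E4 and did not pass (adjusted p = 0.0538). It passed without D10 TE replicate 2 (adjusted p = 0.0256) or 4 (0.0313), E4 TE replicate 5 (0.0245) or D10 ICM replicate 4 (0.0491). With no low-count filter it also passed (log2 1.73 ± 0.32, adjusted p = 5.07e-06). The ICM value was log2 0.72 ± 0.48 (adjusted p = 0.297), and log2 0.77 ± 0.25 with no low-count filter (adjusted p = 0.0211). Both passes without the filter came with smaller standard errors at nearly the same log2 values. The difference of the changes was log2 1.00 ± 0.80 (adjusted p = 0.532).

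Of 16 other tight junction genes tested, 9 were higher and 1 lower in the TE at D10, and 6 were higher, 1 lower and 9 not passed at E4. The shares of all tested genes were 12.6% higher and 12.9% lower at D10, and 15.4% and 15.8% at E4. The median log2 fold changes of the 16 were 0.84 and 0.49. Marveld2, or tricellulin, which seals the corners where 3 cells meet, had 61.2 ± 17.5 CPM in D10 TE and 64.3 ± 25.1 CPM in E4 TE, against 20.5 ± 7.46 CPM in D10 ICM and 14.6 ± 6.04 CPM in E4 ICM (SD, n = 5 each). It was higher in the TE at D10 (log2 1.48 ± 0.32, adjusted p = 0.00110) and at E4 (log2 2.12 ± 0.36, adjusted p = 6.44e-05). Epcam, an epithelial adhesion molecule that binds claudins, was lower at D10 than at E4 within the TE (log2 -1.13 ± 0.27, adjusted p = 0.00389). Cgn, the junction plaque protein cingulin, was higher in the TE at E4 (log2 1.98 ± 0.40, adjusted p = 0.000481), and its relative Cgnl1 was higher at D10 than at E4 in the TE (log2 1.33 ± 0.32, adjusted p = 0.00409).

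Cldn23, another claudin, was counted at D10 and hardly at E4. It had 216 counts over the D10 TE libraries, all 5 of them between 42.8 and 117 CPM, against 0 in all 5 E4 TE libraries. Against a floor of 3 counts over the group, it was at least 42.7-fold higher at D10 than at E4 in the TE. In the ICM it had 25 counts at D10 against 1 at E4, a ratio of 19.5 with a counting interval of 3.19 to 800. Jam2, a junctional adhesion molecule, was on the ICM side. It had 2 counts in D10 TE against 54 in D10 ICM, and 0 counts in E4 TE against 233 in E4 ICM, at least 67.5-fold lower. In the ICM it was lower at D10 than at E4 (log2 -2.28 ± 0.38, adjusted p = 0.000199).

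Of 7 other adherens junction genes, 2 were higher and 2 lower in the TE at D10, against 12.6% and 12.9% of all tested genes. At E4, 2 were higher and 0 lower, against 15.4% and 15.8% (0 lower with DESeq2, and 1 at an unadjusted p under 0.05 in edgeR). Ctnna1, alpha-catenin, which links cadherins to actin, was higher in the TE at D10 (log2 0.60 ± 0.20, adjusted p = 0.0308) and at E4 (log2 0.75 ± 0.21, adjusted p = 0.00677). Nectin3, a cell adhesion molecule that pairs with other nectins across the contact, had 3 counts in D10 TE and 22 in E4 TE, against 107 in D10 ICM and 55 in E4 ICM. The ratio of D10 ICM to D10 TE was 40.8, with a counting interval of 13.6 to 201, and that of E4 TE to D10 TE 12.4, with an interval of 3.72 to 64.6. It was the gene of this list whose change differed between the tissues (adjusted p = 0.00200). Jup, or plakoglobin, was lower in the TE at D10 (log2 -1.25 ± 0.37, adjusted p = 0.0130).

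Desmosomes, the spot-like contacts anchored to keratin filaments, had 4 of 8 tested genes higher and 0 lower in the TE at each time, with edgeR and with DESeq2, and 0 lower at an unadjusted p under 0.05. The shares of all tested genes were 12.6% higher and 12.9% lower at D10, and 15.4% and 15.8% at E4. Over time, 2 of the 8 were higher at D10 in the TE (11.9% of all tested genes) and 3 in the ICM (13.7%). In either tissue 0 were lower, against 9.89% in the TE and 9.97% in the ICM (at an unadjusted p under 0.05 in edgeR, 0 in the TE and 1 in the ICM). Dsp, the keratin anchor desmoplakin, had 260.4 ± 40.6 CPM in D10 TE and 139.6 ± 41.1 CPM in E4 TE, against 117 ± 18.5 CPM in D10 ICM and 67.8 ± 25.8 CPM in E4 ICM. It was higher at D10 than at E4 in the TE (log2 0.93 ± 0.24, adjusted p = 0.00644) and in the ICM (log2 0.71 ± 0.26, adjusted p = 0.0470). The plaque gene Pkp2 likewise passed in the TE (log2 0.95 ± 0.25) and in the ICM (log2 0.92 ± 0.28).

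Polarity genes were divided. Of 14 tested, 1 was higher and 2 lower in the TE at D10 (12.6% and 12.9% of all tested genes). At E4, 4 were higher and 2 lower (15.4% and 15.8%). Over time in the TE, 3 were higher and 4 lower (11.9% and 9.89%). Pard3, a scaffold of the apical Par complex, was higher at D10 than at E4 in the TE (log2 1.65 ± 0.26, adjusted p = 4.71e-05) and in the ICM (log2 1.32 ± 0.26, adjusted p = 0.000764), whereas Crb3, an apical membrane protein, was lower in the TE (log2 -1.69 ± 0.40) and in the ICM (log2 -1.42 ± 0.42). The atypical protein kinase genes parted at E4, with Prkcz higher in the TE (log2 1.75 ± 0.35, adjusted p = 0.000427) and Prkci lower (log2 -1.35 ± 0.23, adjusted p = 7.59e-05). Ezr, which ties apical membrane to actin, was lower in the TE at D10 (log2 -1.53 ± 0.39) and at E4 (log2 -2.28 ± 0.46).

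Among other genes of the sodium pump, 2 of 4 tested were higher in the TE at D10 and 1 at E4 (12.6% and 15.4% of all tested genes). In each tissue 2 were higher at D10 than at E4 (11.9% in the TE and 13.7% in the ICM). In these comparisons 0 were lower by edgeR or DESeq2 (1 at an unadjusted p under 0.05, at E4), where 9.89% to 15.8% of all tested genes were lower. Fxyd6, a small regulator of the pump, had 268 ± 107 CPM in D10 TE and 16.0 ± 13.1 CPM in E4 TE, against 105 ± 65.6 CPM in D10 ICM and 6.01 ± 4.997 CPM in E4 ICM. It was higher at D10 in the TE (log2 4.18 ± 0.48, adjusted p = 7.61e-07) and in the ICM (log2 3.88 ± 0.56, adjusted p = 2.65e-05).

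Aqp9, a channel for water and small solutes such as glycerol, was the 1 other aquaporin with enough counts for a test. It had 342.8 ± 39.1 CPM in D10 TE and 149.5 ± 62.7 CPM in E4 TE, against 74.2 ± 32.3 CPM in D10 ICM and 26.6 ± 8.16 CPM in E4 ICM. TE exceeded ICM at D10 (log2 2.15 ± 0.27, adjusted p = 1.57e-06) and at E4 (log2 2.53 ± 0.32, adjusted p = 2.07e-06). D10 exceeded E4 in the TE (log2 1.16 ± 0.26, adjusted p = 0.00177) and in the ICM (log2 1.54 ± 0.33, adjusted p = 0.00140).

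Of 13 ion transport genes, 4 were higher and 2 lower in the TE at D10 (12.6% and 12.9% of all tested genes). At E4, 3 were higher and 3 lower (15.4% and 15.8%). In the TE 4 were higher and 2 lower at D10 than at E4 (11.9% and 9.89%). In the ICM 0 passed with edgeR or DESeq2 (1 higher and 1 lower at an unadjusted p under 0.05), against 13.7% higher and 9.97% lower. Scnn1a, the alpha subunit of the epithelial sodium channel, had 97.1 ± 24.0 CPM in D10 TE and 5.12 ± 9.31 CPM in E4 TE, against 8.499 ± 8.26 CPM in D10 ICM and 3.01 ± 3.58 CPM in E4 ICM. It was higher at D10 than at E4 in the TE (log2 4.93 ± 0.66, adjusted p = 6.30e-06), from 4 counts in all at E4. Scnn1b, the beta subunit, had 75.4 ± 19.3 CPM in D10 TE against 2.58 ± 3.75 CPM in D10 ICM (log2 4.59 ± 0.78, adjusted p = 0.000130). At E4 it had 30 counts in the TE, spread over 3 of 5 libraries, against 0 in the ICM, at least 11.5-fold higher. The potassium channel gene Kcnk5 was higher in the TE at D10 (log2 2.60 ± 0.46) and at E4 (log2 2.51 ± 0.64), and Slc12a2, the sodium-potassium-chloride importer, lower at D10 (log2 -2.01 ± 0.38) and at E4 (log2 -2.24 ± 0.46). The time change differed between the tissues for Slc12a7, a potassium-chloride exporter (log2 1.92 ± 0.53, adjusted p = 0.0310).

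Of the transcription and splicing regulators of epithelia, 7 of 8 tested genes were higher in the TE at each time and 0 lower, with edgeR and with DESeq2, and 0 lower at an unadjusted p under 0.05. Among all tested genes, 12.6% were higher and 12.9% lower at D10, and 15.4% and 15.8% at E4. Elf3, an epithelial ETS factor, had 740.3 ± 207 CPM in D10 TE and 839 ± 186 CPM in E4 TE, against 173 ± 36.9 CPM in D10 ICM and 286 ± 95.7 CPM in E4 ICM. Tfap2a was higher in the TE at both times (D10 log2 1.82 ± 0.29, E4 log2 2.15 ± 0.27), and lower at D10 than at E4 in the TE (log2 -1.79 ± 0.25, adjusted p = 1.34e-05) and in the ICM (log2 -1.45 ± 0.30, adjusted p = 0.00111). Tfap2c, a factor of the same family, was higher at D10 in the TE (log2 0.75 ± 0.22, adjusted p = 0.0151) and in the ICM (log2 1.40 ± 0.25, adjusted p = 0.000255). Across these lists, the medians and counts describe the lists and give no test of them.

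**Figure D4:**
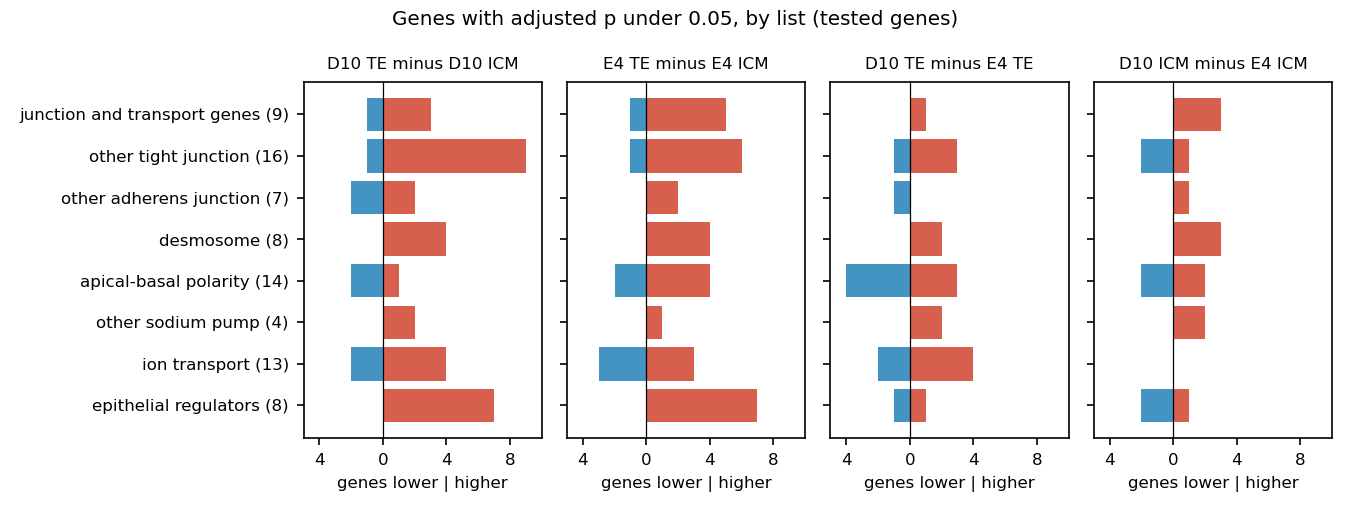
Number of tested genes per list (rows, number tested in brackets) that were higher (right of 0) or lower (left of 0) at an adjusted p under 0.05, in the 2 tissue comparisons and the 2 time comparisons. In the tissue comparisons, the epithelial regulators have 7 of 8 genes on the TE side at both times and the other tight junction genes 9 of 16 at D10 and 6 of 16 at E4. The shares of all tested genes on that side are 12.6% at D10 and 15.4% at E4.

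The genes whose pattern over the 20 libraries lay closest to each member were found by the root-mean-square distance of centred log2 CPM among 6682 tested genes with a symbol other than a clone name. Nearest to Cldn4, at 0.43, was Csrp1, with group means of 130.4 CPM in D10 TE and 123 CPM in E4 TE, against 55.8 CPM in D10 ICM and 33.3 CPM in E4 ICM, followed by Kctd15 at 0.45. Nearest to Cldn7 was Cd63-ps at 0.37, a pseudogene whose reads may come from its parent gene, and then Rala at 0.42. The nearest genes to Cdh1 were Btbd7 (0.29) and Rabggtb (0.31), to Atp1b1 Fam174a (0.38) and Itfg1 (0.42), to Ocln Slc2a3 (0.56) and Cpped1 (0.58), to Tjp1 Slc30a6 and Dnmbp (0.52 each), and to Aqp3 Atp6v0a4 (0.62) and Cnn2 (0.64). For Cldn6 the smallest distance was 0.93, to Hmgcs1, and its own SD over the libraries was 1.20. For Aqp8 it was 0.87, to Kyat3, and its own SD was 1.65. These distances are descriptions over libraries that share litters and pools.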

How the data were processed

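The 3′ ends of polyadenylated transcripts were counted by BRB-seq, in which each library's mRNA is reverse transcribed with a barcoded primer before libraries are mixed. The authors deposited raw counts for every gene in 20 libraries, and these are the values used. The submitters' processing notes name featureCounts 2.0.1, HISAT2 2.2.1, Trim Galore 0.6.7 and UMI-tools. UMI collapsing, the use of strand and the annotation are points not given in the sources used here.

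Libraries were grouped by tissue and time from the labels, and litters were taken from the deposited barcode list. Genes passing filterByExpr with a minimum count of 10 were fitted in 1 model of 4 groups with edgeR 4.0.16 (R 4.3.3), with TMM factors and the quasi-likelihood test. P-values were adjusted by Benjamini-Hochberg over all tested genes in each of 5 comparisons, at a threshold of 0.05. Fold changes are given on the log2 scale with the fit's standard error, and levels as CPM computed here with TMM factors. The test was checked on simulated counts.

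Libraries of 1 litter deviated together weakly and on average only. The mean correlation was 0.168 at D10 (range -0.0302 to 0.293) and 0.177 at E4 (range 0.104 to 0.263), over 5 pairs each. Between litters the mean was -0.0418 at D10 and -0.0435 at E4. Litter was therefore a block in an alternative for the tissue comparisons. Other alternatives were RLE factors, DESeq2 1.42.0, no low-count filter, thinning to 144276 counts, leaving out each library, and leaving out the E4 litters with a zona. The 9 genes and the gene lists were chosen with earlier results of these data known. From each list, up to 3 passing genes per direction and comparison with the smallest adjusted p could be named, and the 2 genes nearest to each member by pattern. Where a group held 1 to 3 counts of a gene, the ratio of pooled counts is given with its exact 95% interval, and for a group at 0 a bound against 3 counts over the group. Gene positions are those of GENCODE M21 on GRCm38. RefSeq windows were available for 8 of the 9 genes, with none for Cdh1, which was not searched for motifs. Some genes of the lists are counted in them but not reported here by name.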

Additional observations from a re-analysis of the deposited data

Results flagged for a closer look

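Of the 36 sets of 5 libraries (9 genes in 4 groups), 2 held a library that stood far from the other 4, where chance gives about 1 in 20. Ocln in D10 TE replicate 2 had 144.8 CPM, with the next highest library at 114 CPM. Aqp3 in D10 ICM replicate 3 had 283 CPM, with the next highest at 87.3 CPM. That library also had the highest trophectoderm sum (7534 CPM) and the lowest primitive endoderm sum (6227 CPM) of its group, and 18.9% of its counts were mitochondrial, the highest share of the 20 libraries, and the part of these in its Aqp3 value was not tested.

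The D10 change of Cldn7 differed between the tissues, by log2 -1.34 ± 0.33 for TE minus ICM (edgeR, adjusted p = 0.0177). Cldn7 had 498 ± 74.5 CPM in D10 TE and 749 ± 257 CPM in E4 TE, against 342 ± 90.1 CPM in D10 ICM and 206 ± 58.1 CPM in E4 ICM (SD, n = 5 each).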

How the results depend on the processing

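Thinning all libraries to the smallest total left 3858 genes to test, against 6943 in the main fit. The calls among those 3858 were 421 higher and 376 lower for D10 against E4 in the TE, 526 and 366 in the ICM, 436 and 462 for TE against ICM at D10, 629 and 574 at E4, and 54 and 133 for the difference of the changes. With no low-count filter, 20558 genes were tested, of which 1474 were lower in the TE at D10 and 352 lower in the difference. Of the 9 genes, 2 were then lower in the TE at D10, 2 were higher and 1 lower at D10 in the TE, and 2 lower in the difference. Without the E4 litters with a zona, 7623 genes were tested and 379 were lower at D10 in the ICM. The difference then had 54 higher and 144 lower, and 0 of the 9 genes were lower in it with edgeR (4 at an unadjusted p under 0.05). With litter as a replicate block, 2 of the 9 were lower in the TE at D10 and 3 in the difference. In the difference, 2 of the 9 were lower with RLE factors and 2 with DESeq2. Of single values, 1 turned its sign under these settings, Atp1b1 at E4 (log2 0.0296 without the zona litters), and it had not passed. With each of the 20 libraries left out in turn, 1 to 2 of the 9 genes were higher and 0 to 1 lower at D10 in the TE, 1 to 3 were higher and 0 to 1 lower in the ICM, 1 to 2 were lower in the TE than in the ICM at D10, and 1 to 3 were lower in the difference, for which 83 to 128 of all genes were higher. Values that had not passed crossed 0 among these for Cdh1 (-0.24 to 0.12) and Tjp1 (-0.19 to 0.29) at D10 and Atp1b1 (-0.35 to 0.0781) at E4. The cause was not tested in any of these. A count of 0 allows 3.15 to 21.5 CPM over the libraries, and of the 9 genes 1 had such a count, Ocln in E4 ICM replicate 1.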
